A study of Rattus norvegicus with 24 samples.

Results

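The 10 genes described here encode acid-base proteins of the renal intercalated cell, and they were taken by symbol from a list: Atp6v1b1, Atp6v0d2, Atp6v1g3, Slc4a1, Slc26a4, Slc4a9, Foxi1, Rhcg, Rhbg and Aqp6. All 10 were found among the 36856 genes of each count table. RNA sequencing covered 24 libraries from Sprague-Dawley rats, 4 rats in each of 6 groups, and each came from kidney papilla (the inner medulla) or from heart ventricle. In the first experiment, rats on a synthetic diet with 0.4% Na carried a minipump infusing aldosterone at 12 µg per day (group "aldosterone") or served as "control", and kidney was sequenced. In the second, rats ate 0.4% Na ("high salt" in the titles, the control diet of the protocol) or 0.01 to 0.02% Na ("low salt"), and kidney and heart were sequenced. The diets lasted 7 days and the rats weighed 120 to 200 g. No gene deletion or transgene is involved, and no age is given in the sources used here. It is not stated if kidney and heart came from the same animals, and p-values measure the spread between these rats only.

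Intercalated cells are the acid-base cells of the connecting tubule and collecting duct and lie among the principal cells, which carry Na and water. Type A cells secrete protons into the urine through an apical vacuolar H+-ATPase and return bicarbonate to the blood through the anion exchanger AE1 (Slc4a1), while type B cells secrete bicarbonate through pendrin (Slc26a4) and carry AE4 (Slc4a9) basolaterally. Type B cells are known from the cortex, and the type A cell is the form that reaches into the initial inner medulla. Aldosterone is known to act on intercalated cells as well as on principal cells.

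The libraries held 24299423 to 38318764 estimated reads. The labels describe female rats, yet this holds by transcript for the aldosterone experiment alone: Xist, the RNA of the inactive X chromosome, stood at 239 to 454 CPM (counts scaled to a common library total) in its 8 libraries. In the 16 libraries of the low-salt experiment Xist was at most 0.0912 CPM, and 4 Y-linked genes summed to 144 to 275 CPM. Levels or responses set side by side across the experiments therefore also set these patterns side by side. Tissue markers followed the labels: principal cell markers (9 genes, among them Aqp2) summed to 10795 to 17899 CPM in the 16 kidney libraries, and heart muscle markers (6 genes) to 61652 to 79531 CPM in the 8 heart libraries.

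Start-site sequences were available for 8 of the 10 genes, from RefSeq on the rat build GRCr8, each running from 250 bases before to 50 bases after an annotated start. They were searched on both strands for the core letters bound by forkhead factors, the family of FOXI1 (TGTTTAC and TGTTTAT), and for letters bound by the aldosterone and glucocorticoid receptors (the half-site AGAACA and the full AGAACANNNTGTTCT, which contains it). The forkhead cores occurred in 2 of the 8, in Atp6v1b1 starting 93 bases before the start and in Atp6v1g3 starting 221 bases before it, and either core occurs in 8.09% of 33469 windows of this length. The half-site occurred in 1 of the 8, in Slc4a9 starting 94 bases before the start, and occurs in 20.7% of all windows. The full element was in none of the 8 and is in 0.0149% of all windows. The 3 windows with a match are shown because they belong to a pair of proton pump genes and to the exchanger whose groups did not overlap between diets. Capitals mark the matched letters, the build is GRCr8, and all 3 are on the plus strand (chr4:117781194-117781493, chr13:52362082-52362381 and chr18:28402543-28402842).
Atp6v1b1: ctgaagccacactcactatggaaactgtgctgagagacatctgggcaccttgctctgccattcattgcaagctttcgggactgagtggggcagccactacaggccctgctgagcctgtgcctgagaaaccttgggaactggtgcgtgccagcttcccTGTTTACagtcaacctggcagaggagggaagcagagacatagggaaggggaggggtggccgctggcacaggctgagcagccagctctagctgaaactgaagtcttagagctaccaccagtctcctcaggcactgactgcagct
Atp6v1g3: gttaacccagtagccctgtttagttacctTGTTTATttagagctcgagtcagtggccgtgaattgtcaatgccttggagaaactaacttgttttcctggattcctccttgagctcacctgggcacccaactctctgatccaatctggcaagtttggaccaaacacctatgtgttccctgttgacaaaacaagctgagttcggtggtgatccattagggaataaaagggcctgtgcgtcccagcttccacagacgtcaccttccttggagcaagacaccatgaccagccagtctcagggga
Slc4a9: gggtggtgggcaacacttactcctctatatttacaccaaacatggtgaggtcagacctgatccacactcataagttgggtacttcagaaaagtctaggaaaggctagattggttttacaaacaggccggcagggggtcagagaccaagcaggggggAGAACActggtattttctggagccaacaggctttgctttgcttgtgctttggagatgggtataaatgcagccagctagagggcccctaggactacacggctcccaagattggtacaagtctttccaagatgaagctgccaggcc
A match describes letters only and shows no binding.

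All members except Slc26a4 were well above counting noise in the inner medulla, and none passed the test of either treatment. With aldosterone, 9 members could be tested, all 9 log2 fold changes were positive, and their median was 0.28. On low salt all 10 were positive, with a median of 0.39. Over all genes tested, 50.9% and 49.3% of fold changes were positive, with medians of 0.00 and -0.00. Of the 9 and 10 members 0 and 0 passed in edgeR's quasi-likelihood test (Benjamini-Hochberg adjusted p under 0.05 over all genes), where 0.0% of 17671 genes were called with aldosterone and 2.46% of 18449 on low salt. At an unadjusted p under 0.05 the counts were 0 and 2 members, against 9.9% and 19.6% of all genes. DESeq2 called 0 and 1 members, and 2.11% and 9.19% of all genes. Slc26a4 had no DESeq2 adjusted p on low salt. In tissue RNA, more cells of a type and more RNA per cell cannot be told apart.

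**Figure D1:**
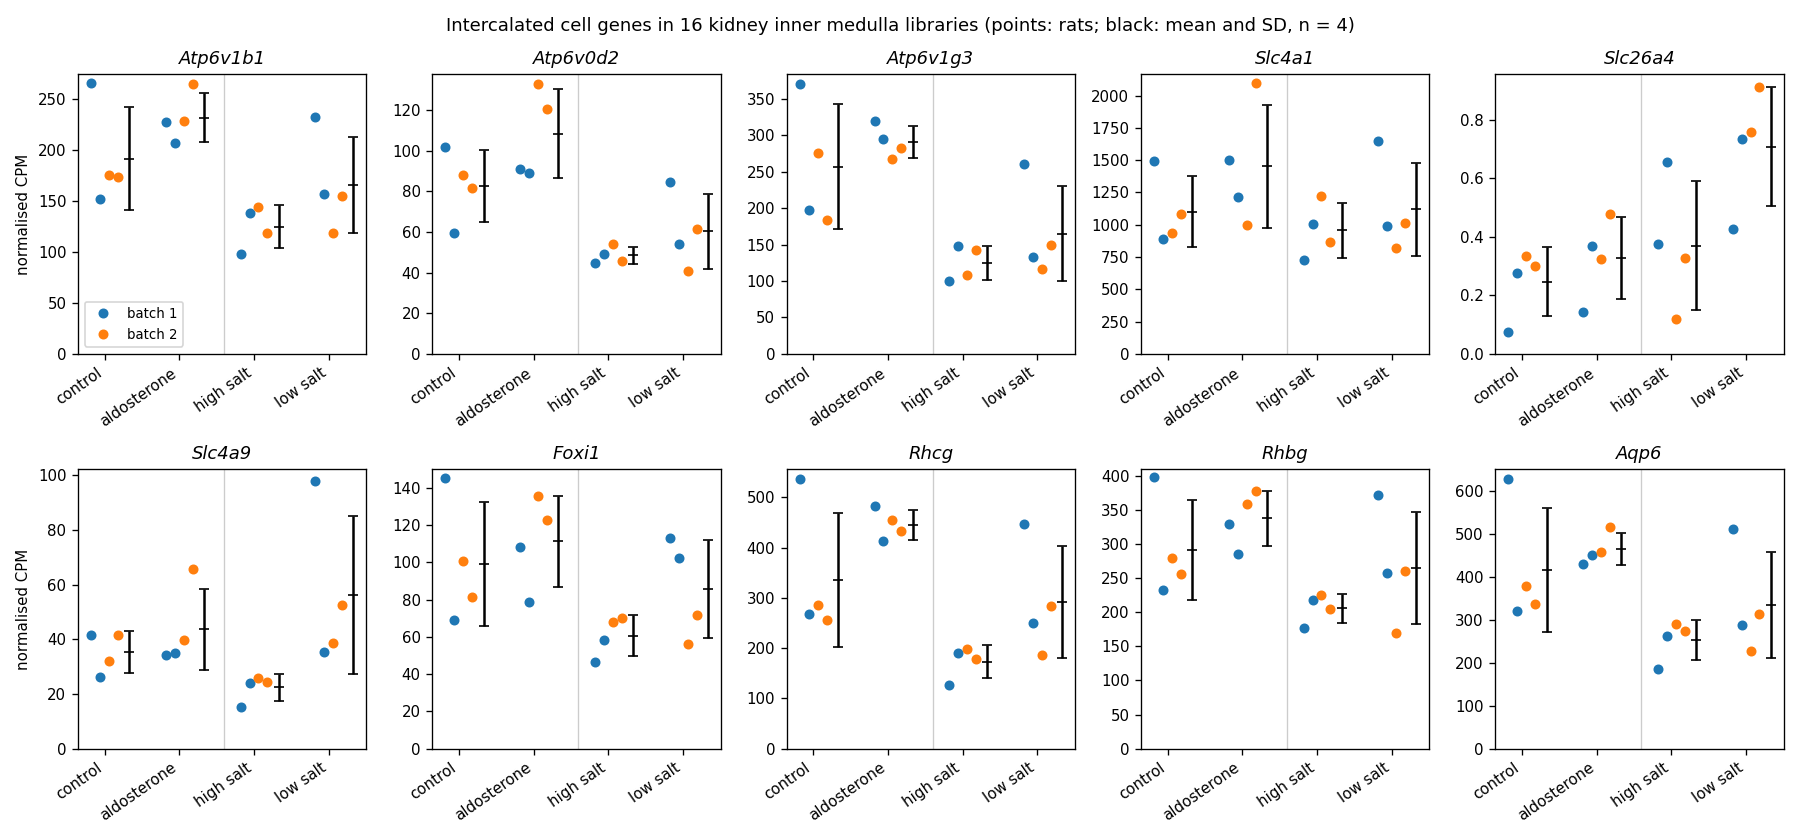
Normalised CPM (vertical axis, from 0, a separate scale for each gene) of the 10 members in the 16 kidney libraries, by group; points are rats coloured by batch, and black marks give the mean and SD of 4 rats. Control replicate 1 and low-salt replicate 1 are high in nearly every panel, and Slc4a9 alone separates the diets, with 15.2 to 25.9 CPM on high salt and 35.3 to 98.0 CPM on low salt.

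Foxi1 encodes the forkhead transcription factor that specifies intercalated cells. It stood at 145, 69.2, 101 and 81.6 CPM in control replicates 1 to 4, and at 108, 78.6, 136 and 122 CPM in aldosterone replicates 1 to 4. The ranges overlapped, with an aldosterone log2 difference of 0.15 ± 0.25 (SE, n = 4 rats per group, edgeR adjusted p 0.868). In the low-salt experiment it measured 46.2, 58.4, 68.0 and 70.0 CPM on high salt and 113, 102, 56.0 and 71.9 CPM on low salt. Low-salt replicates 1, 2 and 4 were above all 4 rats on high salt and replicate 3 was not. The log2 difference was 1.05 in batch 1 and -0.12 in batch 2, and 0.47 ± 0.23 in the fit (adjusted p 0.303).

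The vacuolar H+-ATPase is built of a peripheral domain that splits ATP and a membrane domain that moves protons, and intercalated cells use cell-type forms of several subunits. Atp6v1b1, the B subunit of the peripheral domain, stood at 265, 152, 175 and 173 CPM in controls and 227, 206, 228.4 and 264 CPM with aldosterone (231.5 ± 23.8 against 191 ± 50.5 CPM, SD, n = 4). Control replicate 1 was above all 4 aldosterone rats and the other 3 controls were below all 4. The log2 fold change was 0.28 ± 0.17 (SE, adjusted p 0.645). On high salt it measured 97.4, 138, 144 and 118 CPM, and on low salt 231.5, 156, 119 and 155 CPM, a log2 difference of 0.39 ± 0.20 (SE, adjusted p 0.321). Atp6v0d2, the d subunit of the membrane domain, ran from 59.3 to 102 CPM in controls, 89.3 to 133 with aldosterone, 44.9 to 54.2 on high salt and 40.9 to 84.6 CPM on low salt. It had log2 fold changes of 0.37 ± 0.16 with aldosterone (adjusted p 0.509) and 0.30 ± 0.19 on low salt (adjusted p 0.427). Atp6v1g3, the G subunit of the peripheral stalk, ran from 184 to 370, 267 to 319, 99.5 to 148 and 116 to 261 CPM in the same order, with 0.19 ± 0.20 and 0.38 ± 0.24 (adjusted p 0.786 and 0.436). For both genes the treated rats overlapped with their controls in either experiment.

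The anion exchangers come in type A and type B forms. Slc4a9 encodes AE4, described above for type B cells. Slc26a4, the other type B gene listed, was near the limit of detection in these libraries, so Slc4a9 levels are not assigned to a cell type. Slc4a9 measured 15.2, 23.98, 25.9 and 24.4 CPM on high salt and 98.0, 35.3, 38.7 and 52.6 CPM on low salt. All 4 rats on low salt were above all 4 on high salt, as for 4.83% of all genes tested, and no other member had such a separation. On average it stood at 22.4 ± 4.85 and 56.2 ± 28.9 CPM (SD, n = 4), the log2 fold change was 1.31 ± 0.34 (SE) or 2.48-fold, and the adjusted p was 0.0843 in edgeR. DESeq2 gave an adjusted p of 0.0190. The difference was 1.62 on the log2 scale in batch 1 and 0.84 in batch 2. Without low-salt replicate 1, the highest rat, the log2 fold change was 0.85 with an adjusted p of 0.05002 in edgeR, and none of the 8 fits that left out a rat passed. With aldosterone Slc4a9 stood at 34.2, 35.1, 39.6 and 65.5 CPM against 41.5, 26.0, 31.9 and 41.4 CPM, with overlapping ranges (0.28 ± 0.21, adjusted p 0.702), and 0.066 on the log2 scale without aldosterone replicate 4. The low-salt response exceeded the aldosterone response by 1.05 ± 0.44 on the log2 scale (SE, 16 libraries). That interaction had an edgeR p of 0.0323 and an adjusted p of 0.330, so it did not pass over 18938 genes. The kidney experiments also differed in Xist and Y-linked transcripts, so treatment and experiment cannot be told apart in it.

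Slc26a4, which encodes pendrin, the apical chloride-bicarbonate exchanger of type B cells, was near the limit of detection in the inner medulla. Its estimated reads ran from 2 to 30 per kidney library, which is 0.0728 to 0.912 CPM. On high salt it measured 0.375, 0.655, 0.118 and 0.328 CPM and on low salt 0.427, 0.733, 0.758 and 0.912 CPM, a log2 difference of 0.96 ± 0.47 (SE, n = 4, edgeR adjusted p 0.302). The difference was 0.16 in batch 1 and 1.77 in batch 2, and the fit gave 0.60 without high-salt replicate 3, the lowest rat. It did not pass the filter on low counts in the aldosterone experiment, where it stood at 0.0728 to 0.479 CPM. Heart held 0.0737 to 0.492 CPM, a range that overlaps that of the kidney groups.

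Slc4a1 encodes AE1, the basolateral exchanger of type A cells, and its longer form is also the band 3 protein of red cells. It measured 723, 1008, 1224 and 868 CPM on high salt and 1646, 992, 821 and 1017 CPM on low salt, with overlapping ranges (log2 0.21 ± 0.24, SE, adjusted p 0.672) and differences of 0.58 in batch 1 and -0.17 in batch 2. In controls it stood at 1493, 891, 938 and 1085 CPM and with aldosterone at 1503, 1212, 998 and 2096 CPM (0.40 ± 0.26, adjusted p 0.654), and without aldosterone replicate 4, the highest rat, the log2 fold change was 0.11. Red cell transcripts were present in the same libraries. The 15 erythroid markers summed to 1424 to 2186 CPM in controls, 1895 to 4243 with aldosterone, 909 to 4843 on high and 2412 to 5372 CPM on low salt, with 13 of 14 tested members positive for aldosterone and 11 of 14 for low salt and none past the threshold in edgeR. With aldosterone their median log2 fold change was 0.83, and 10 of 14 had an unadjusted p under 0.05, against 9.9% of all genes. In 3 of them the aldosterone rats were higher without overlap, as for 3.15% of all genes. On low salt the median of the erythroid markers was 0.75 and 2 of 14 had such a p, against 19.6% of all genes. Their part in the Slc4a1 values was not tested. Rhag, a red cell relative of Rhcg and Rhbg, was at 0 in all control and all low-salt kidney libraries, at 0.0354 CPM in 1 aldosterone library and at 0.0524 to 0.0804 CPM in 3 high-salt libraries. For each 1000 CPM of globin transcripts, heart libraries held 1.94 to 8.30 CPM of Slc4a1 and kidney libraries 168 to 2359 CPM.

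The ammonia channels Rhcg (apical and basolateral) and Rhbg (basolateral) let the collecting duct excrete acid as ammonium. Rhcg measured 127, 190, 198 and 178 CPM on high salt and 447, 249, 187 and 283 CPM on low salt, so 3 of the 4 low-salt rats were above all 4 on high salt. That is 292 ± 111 against 173 ± 32.1 CPM (SD, n = 4), a log2 difference of 0.73 ± 0.26 (SE, adjusted p 0.169) and differences of 1.11 and 0.30 in batches 1 and 2. With aldosterone it stood at 482, 412, 454 and 433 CPM against 535, 268, 286 and 256 CPM in controls, a log2 difference of 0.43 ± 0.21 (adjusted p 0.558). Only control replicate 1 lay within or above the aldosterone range. Rhbg stood at 399, 232.9, 280 and 255 CPM in controls and 330, 285, 360 and 378 CPM with aldosterone, and at 177, 218, 225 and 205 CPM on high salt and 372, 257, 170 and 261 CPM on low salt. Its ranges overlapped in both experiments, with log2 fold changes of 0.34 ± 0.20 on low salt and 0.21 ± 0.18 with aldosterone (adjusted p 0.389 and 0.725).

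Aqp6 encodes an aquaporin of intracellular vesicles in intercalated cells. It measured 629, 320, 380 and 338 CPM in controls and 430, 452, 458 and 517 CPM with aldosterone, where control replicate 1 was again the highest of the 8. On high salt it stood at 185, 262, 289 and 273 CPM and on low salt at 511, 288, 227 and 315 CPM, with low-salt replicate 1 far above the other 7. The log2 fold changes were 0.17 ± 0.21 with aldosterone and 0.39 ± 0.25 on low salt (SE, n = 4, edgeR adjusted p 0.821 and 0.429).

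**Figure D2:**
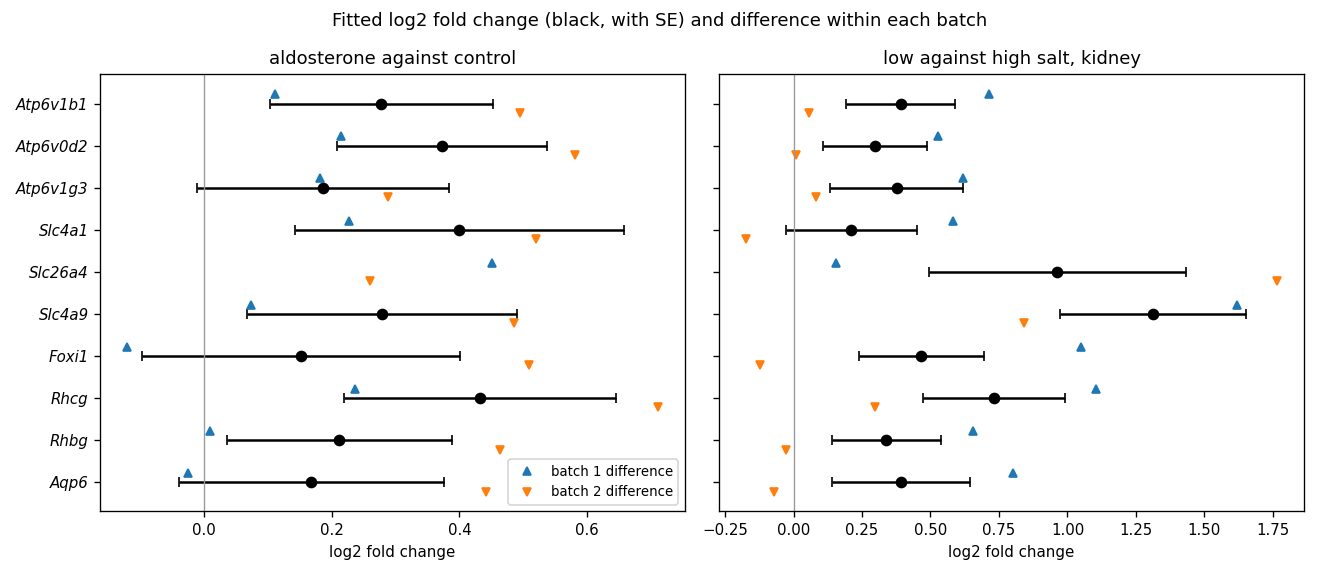
Fitted log2 fold change of each member (horizontal axis; black points with the SE of the edgeR fit) and the difference within batch 1 (blue) and batch 2 (orange), for aldosterone against control (left) and low against high salt in kidney (right); Slc26a4 was not tested on the left. Batch 2 lies above batch 1 on the left for all members but Slc26a4, and below it on the right for the same 9, for example 0.06 against 0.71 for Atp6v1b1.

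Single rats carried much of these differences. Control replicate 1 was the highest control for all 9 members measured above 1 CPM, by a mean of 0.51 on the log2 scale over the control mean. Without it the aldosterone fold changes ran from 0.41 (Atp6v1g3) to 0.72 (Rhcg) on the log2 scale, with a median of 0.48. In that edgeR fit, 9 of 9 members had an unadjusted p under 0.05, as had 12.4% of all genes, and 0 of 9 passed the adjusted threshold, with 0.131 as the smallest adjusted p. In every other aldosterone fit that left out a rat, 0 of 9 had an unadjusted p under 0.05. Leaving out the highest control raises the fold change of each member, and the members vary together, so the 9 are not independent results. The median went the other way, to 0.17, without control replicate 2, the lowest control for 7 of 9, and to 0.15 without aldosterone replicate 4, the highest aldosterone rat for 5 of 9. In batch 2 alone the median was 0.51 and in batch 1 alone 0.06. Low-salt replicate 1 was the highest on low salt for all 9, by a mean of 0.63. Without it the median of the 10 members on low salt was 0.18, and it was 0.22 without high-salt replicate 1, the lowest rat on high salt for all 9. Low-salt replicate 3 was the lowest for 8 of 9, and without it the median was 0.55 and 7 of 10 members had an unadjusted p under 0.05, as had 17.0% of all genes. In the other low-salt kidney fits that left out a rat, 1 to 3 of 10 had such a p. In batch 1 alone the low-salt median was 0.70, and in batch 2 alone it was 0.05 with 7 of 10 positive.

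**Figure D3:**
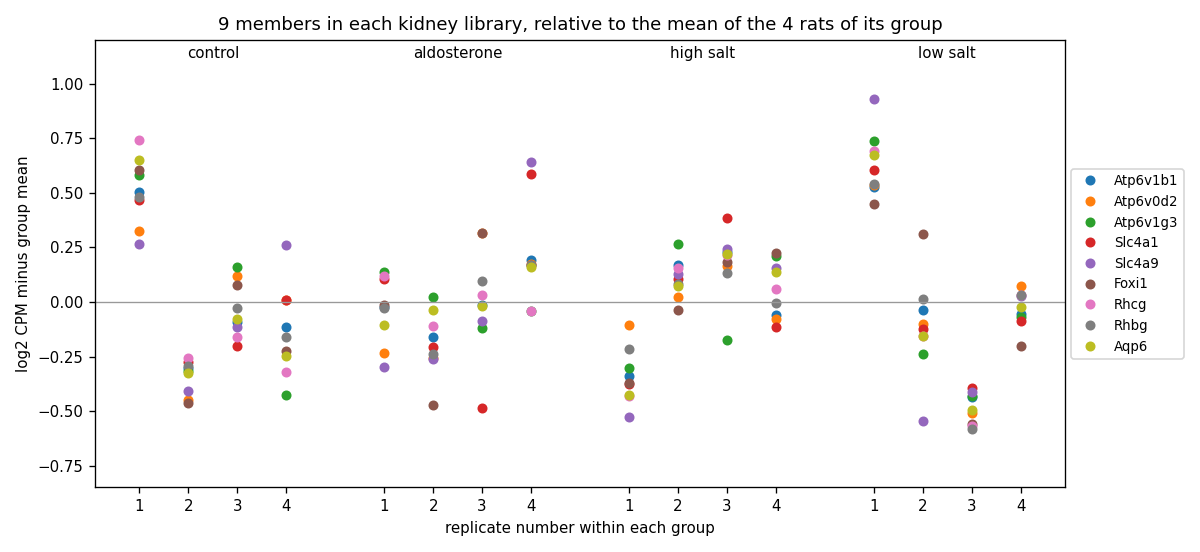
Each of 9 members (colours) in each kidney library, as log2 CPM minus the mean of the 4 rats of its group (vertical axis), by replicate number (horizontal axis). In 5 libraries the 9 members lie on 1 side of the group mean: all are above the mean in control replicate 1 and low-salt replicate 1, and all are below it in control replicate 2, high-salt replicate 1 and low-salt replicate 3. In the other 11 they lie on both sides, for example from -0.54 to 0.31 in low-salt replicate 2.

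Across rats the members varied together. After the group and batch means of each table were taken out of log2 CPM, the 36 pairs of the 9 members had Pearson correlations of 0.55 to 0.98 over the 16 kidney libraries, with a median of 0.85, and Spearman correlations of 0.57 to 0.96. The largest adjusted p over the 36 pairs was 0.0261 for Pearson's r and 0.0226 for Spearman's rho (two-sided permutation tests, 100000 permutations). The permutations treated the 16 values as independent, which they are not once group and batch means are taken out. These p-values are therefore likely too small, and the correlations serve as a description. For each pair, the 2 libraries farthest from the median of its first gene, in the order listed above, were then left out. Libraries far out for the second gene alone stayed in. In that setting r ran from 0.37 to 0.96. Within the tables, with all libraries, it ran from 0.39 to 0.99 (aldosterone) and from 0.63 to 0.99 (low salt). The points share the tissue piece, the library and its scaling. Rhcg and Rhbg, at 0.98, were the closest pair, and Slc4a9 and Foxi1, at 0.55, the farthest. Among the members Slc4a9 lay closest to Slc4a1, at 0.88. By median correlation with the other members, Rhbg (0.93) and Rhcg (0.92) were highest and Slc4a1 (0.76) lowest.

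The genes most like each member were sought among 11674 genes at 5 CPM or more in both kidney tables, as a description. For Atp6v1b1 they were Tfcp2l1, a transcription factor of the collecting duct (r = 0.98), and Rhcg (0.97). Rhcg lay closest to Rhbg and Aqp6 (0.98 and 0.97), and Rhbg to Rhcg and Dll4l1 (0.98 and 0.97). Atp6v1g3 lay closest to Atp6v0a4, the a subunit form of the intercalated cell pump, and to Mgll (0.94 and 0.93), and Atp6v0d2 to Dll4l1 and Rhbg (0.96 each). Foxi1 lay closest to Fam234b and to the pump gene Atp6v0c (0.94 and 0.93), Aqp6 to LOC134481084 and Ccbe1 (0.98 and 0.97), Slc4a1 to Sugp2 and Gba2 (0.90 and 0.90), and Slc4a9 to Prkdc and Cpsf1 (0.93 and 0.92).

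Because the members shared so much of their variation between rats, each was also set against Atp6v1b1 in the same library, as a ratio of counts. This ratio does not depend on library scaling, and it was chosen after the values had been seen. Slc4a9 stood at 0.156, 0.173, 0.180 and 0.207 of Atp6v1b1 on high salt and at 0.424, 0.226, 0.326 and 0.340 on low salt. The ratio was higher in every low-salt rat than in every high-salt rat, 1.80-fold on average (log2 0.85), as for 0.266% of 18448 genes. Shares over all genes are not a like background for these ratios. Atp6v1b1 itself had a log2 fold change of 0.39 on low salt, which lowers ratios to it, and the members share its variation between rats. For Rhcg the ratio was 1.30, 1.38, 1.37 and 1.51 on high and 1.93, 1.59, 1.58 and 1.83 on low salt, again with no overlap and 1.25-fold higher on average. Slc4a1 had lower ratios on low salt, 7.11, 6.34, 6.91 and 6.57 against 7.43, 7.29, 8.49 and 7.36, as had 6.88% of genes. Each of these 3 had an exact two-sided permutation p of 0.0286, the smallest that 4 against 4 allows, and an adjusted p of 0.152 over 16 ratios, so none passed. Against Rhbg or Aqp6 in place of Atp6v1b1 the groups still did not overlap for Slc4a9 (log2 0.92 and 0.87) and Rhcg (0.39 and 0.34), and they overlapped for Slc4a1 (-0.11 and -0.16, exact p 0.371 and 0.200). With aldosterone the 8 ratios overlapped between the groups, where 0.526% of genes had higher and 2.15% lower ratios with no overlap. Slc4a9 stood at 0.186 ± 0.0431 against 0.187 ± 0.0364 of Atp6v1b1 (SD, n = 4).

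**Figure D4:**
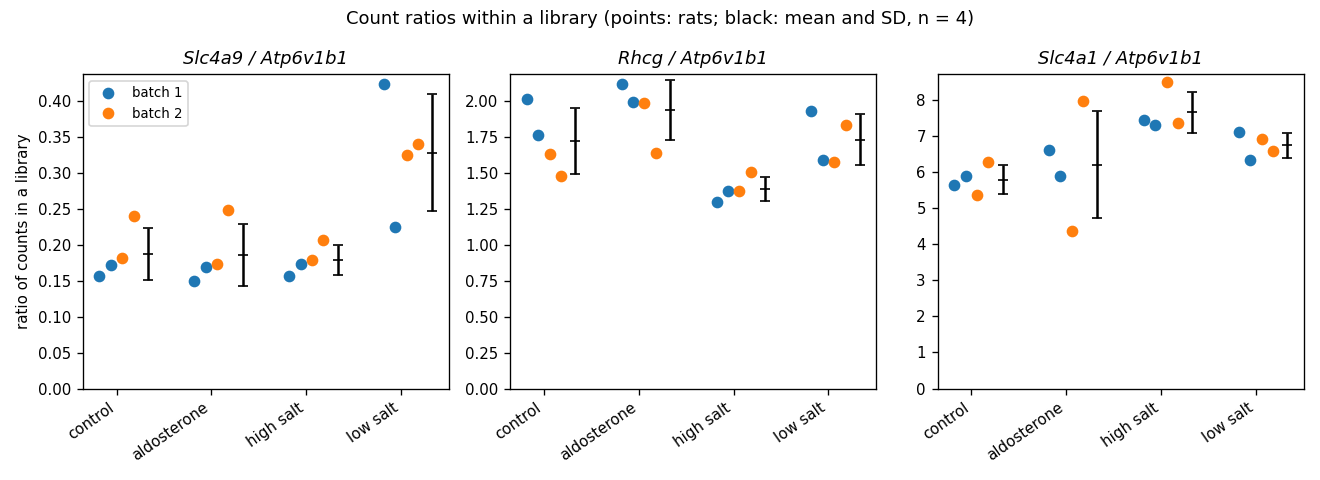
Counts of Slc4a9, Rhcg and Slc4a1 divided by those of Atp6v1b1 in the same library (vertical axes, from 0), by group; points are rats coloured by batch, and black marks give the mean and SD of 4 rats. The Slc4a9 ratio lies at 0.156 to 0.207 on high salt and 0.226 to 0.424 on low salt, and the groups of the aldosterone experiment overlap in all 3 panels.

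The other pump subunits and acid-base genes were described from lists. Of 22 further subunits of the proton pump, 0 were higher and 2 lower on low salt, where 1.09% of all genes were higher and 1.37% lower, with 9 positive and 13 negative log2 fold changes and a median of -0.07. At an unadjusted p under 0.05 there were 8 of 22, against 19.6% of all genes. Without overlap of the diets 1 was higher and 4 lower, as for 4.83% and 6.62% of all genes. Atp6v1h, the H subunit that couples the domains, fell from 219 ± 28.7 to 147 ± 11.3 CPM (SD, n = 4; log2 -0.57 ± 0.08, SE, adjusted p 0.0204). Atp6v0e2, a small membrane subunit, fell from 58.4 ± 2.35 to 47.7 ± 2.78 CPM (-0.29 ± 0.06, adjusted p 0.0447). Of the 8 fits that left out a rat, Atp6v1h passed in 3 (without low-salt replicate 1 or 4 or high-salt replicate 4) and Atp6v0e2 in 1 (without low-salt replicate 1). Their highest adjusted p there was 0.0689 and 0.126, and it was 0.0642 and 0.0943 with the replicate number as a block. With aldosterone 19 of the 22 were positive, with a median of 0.13, and none passed in edgeR. An unadjusted p under 0.05 was found for 3, against 9.9% of all genes. The smallest p-values belonged to Atp6v0a4 (0.37 ± 0.13, adjusted p 0.419) and Atp6v0c (0.23 ± 0.09, adjusted p 0.435).

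Among 23 other intercalated cell and acid-base genes, 19 were tested for low salt, with a median of 0.15. In edgeR 1 was called higher and none lower, against 1.09% and 1.37% of all genes. An unadjusted p under 0.05 was found for 7 of 19, against 19.6% of all genes. Without overlap of the diets 4 were higher and 0 lower, as for 4.83% and 6.62% of all genes. Car2, the cytosolic carbonic anhydrase that supplies protons and bicarbonate in both intercalated and principal cells, rose from 384 ± 59.4 to 707 ± 196 CPM (log2 0.88 ± 0.16, SE, n = 4, adjusted p 0.0411). All 4 low-salt rats were above all 4 high-salt rats, and the differences in batches 1 and 2 were 0.87 and 0.85. Car2 passed in 2 of the 8 fits that left out a rat (without low-salt replicate 1 or 2), with adjusted p up to 0.107 in the others, and its adjusted p was 0.0753 with the block. With aldosterone 0 of 21 passed in edgeR, with a median of 0.19. Against 9.9% of all genes, 2 of 21 had an unadjusted p under 0.05. They were Car12, a membrane carbonic anhydrase, at 426 ± 14.4 against 299 ± 82.6 CPM with no overlap, as for 3.15% of genes (0.53 ± 0.18, adjusted p 0.379), and Car15 (1.68 ± 0.73, adjusted p 0.503).

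Markers of neighbouring cells were measured in the same libraries, and those in this paragraph did not pass, except Slc14a2 and Emcn. Thick ascending limb markers were positive in 6 of 6 with aldosterone and summed to 890 to 2278 CPM in controls and 1999 to 3915 CPM with aldosterone. Of these 6, 3 had an unadjusted p under 0.05 with aldosterone, against 9.9% of all genes. In 1 the aldosterone rats were higher without overlap, as for 3.15% of all genes. On low salt the thick ascending limb markers were positive in 2 of 6 (1456 to 2469 and 1564 to 2878 CPM on high and low salt). Proximal tubule markers were positive in 9 of 10 on low salt (84.95 to 483 CPM on high and 151 to 641 CPM on low salt). Principal cell markers were positive in 4 of 9 with aldosterone and in 6 of 9 on low salt. An unadjusted p under 0.05 was found for 1 and 4 of them, against 9.9% and 19.6% of all genes. Without overlap of the diets 2 were higher and 1 lower, as for 4.83% and 6.62% of all genes. The urea transporter gene Slc14a2 fell on low salt (log2 -0.81 ± 0.12, adjusted p 0.0207). With aldosterone all 6 tested fibroblast markers and all 7 urothelial markers were positive and none passed in edgeR. An unadjusted p under 0.05 was found for 4 and 0 of them, against 9.9% of all genes. They summed to 109 to 343 CPM (fibroblast) and 35.4 to 75.6 CPM (urothelium) in controls, and to 159 to 451 and 25.3 to 179 CPM with aldosterone. Endothelial markers were positive in 1 of 6 on low salt, summing to 459 to 721 CPM against 668 to 934 CPM on high salt, and Emcn, a surface protein of endothelium, fell (log2 -0.75 with an adjusted p of 0.0320). No marker of these 6 cell types was at 0 in all libraries of a kidney group. Their part in the members' values was not tested.

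In heart ventricle the members were near or at 0, apart from Slc4a1 at 19.2 to 121 CPM beside globin transcripts of 2313 to 58161 CPM. In the 4 libraries of batch 2, Foxi1 and Rhcg had no read in any, where 3 reads would be 0.0921 to 0.108 CPM, and Atp6v0d2 also had none. In batch 1 most members were present at low counts. High-salt replicate 2 held 106 reads of Rhcg, 62 of Rhbg, 148 of Aqp6, 62 of Atp6v1g3 and 57.1 of Atp6v1b1, and low-salt replicate 2 held 55.0 of Atp6v1b1 but 5 of Rhcg. Other kidney transcripts were found in the same libraries: thick ascending limb markers summed to 6.33, 95.1, 3.50 and 9.03 CPM in batch 1 (high-salt replicates 1 and 2, low-salt replicates 1 and 2) and to 0.745 to 1.48 CPM in batch 2. Proximal tubule markers summed to 31.0, 53.3, 29.2 and 113 CPM in the same order, highest in low-salt replicate 2, and to 0.320 to 1.11 CPM in batch 2. Aqp2, the principal cell water channel, reached 20.9 CPM in high-salt replicate 2, against 1.29 CPM or less elsewhere. Aqp6, Slc26a4, Slc4a9 and Slc4a1 had reads in all 8 heart libraries, Aqp6 at 0.392 to 4.72 CPM. The source of these reads was not tested.

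**Figure D5:**
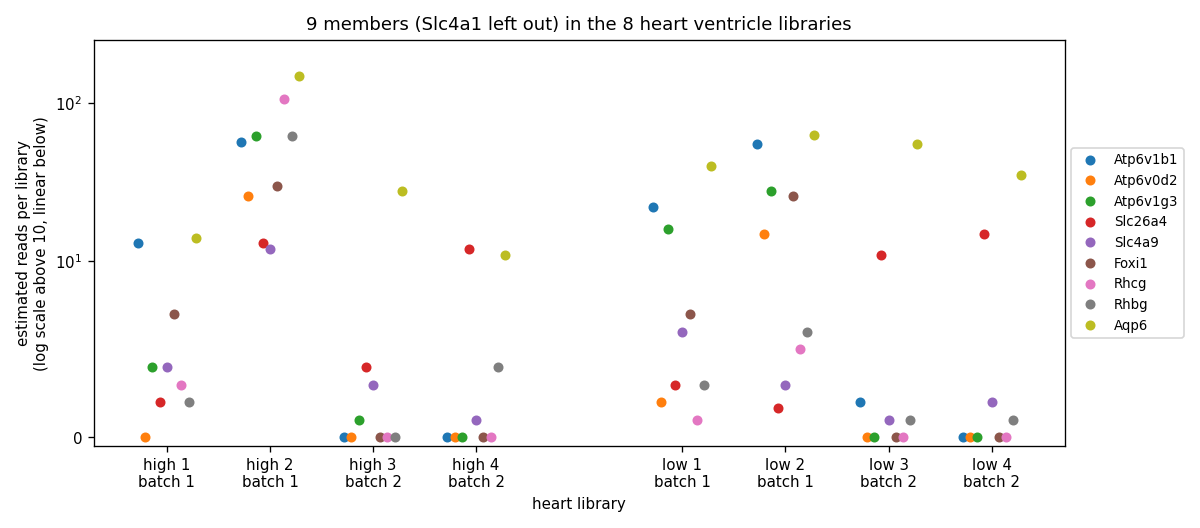
Estimated reads (vertical axis, linear below 10 and logarithmic above) of 9 members in each of the 8 heart libraries (horizontal axis, diet, replicate and batch), without Slc4a1. High-salt replicate 2 is the highest library for 8 of the 9 members, up to 148 reads of Aqp6, and in batch 2 most members have 0 to 4 reads while Aqp6 and Slc26a4 reach 55 and 15.

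For diet in heart, 3 members passed the filter on low counts, and none was called in edgeR, where 0.0517% of 15473 genes were. At an unadjusted p under 0.05 there were 0 of 3, against 10.6% of genes. Of the 3, Slc4a1 alone had a DESeq2 adjusted p (0.809) and was not called. Over all genes tested DESeq2 called 189 higher and 114 lower. Slc4a1 stood at 104, 93.8, 34.4 and 19.2 CPM on high salt and 35.7, 119, 41.6 and 121 CPM on low salt (log2 0.61 ± 0.57, SE, adjusted p 0.731). Aqp6 and Atp6v1b1 had log2 fold changes of 0.27 ± 0.65 and 0.49 ± 0.69 (adjusted p 0.910 and 0.827). With the replicate number as a block the values of Slc4a1, Aqp6 and Atp6v1b1 were 0.40, 0.65 and 0.62 (edgeR adjusted p 0.871, 0.732 and 0.756). The difference of the kidney responses, low salt minus aldosterone, was positive for 8 of 10 members (50.9% of genes) with a median of 0.22. That median was -0.03 without control replicate 1 and also without low-salt replicate 1, and -0.44 in batch 2 alone. In the test 0 of 10 passed, where 0.0528% of 18938 genes did. Slc4a9 alone had an unadjusted p under 0.05 there, as had 13.1% of genes. DESeq2 called no member, gave Slc26a4 no adjusted p, and called 286 genes higher and 371 lower. The kidney responses come from experiments that also differ in Xist and Y-linked transcripts, so treatment and experiment cannot be told apart in their difference.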

How the data were processed

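RNA sequencing measured 16 kidney inner medulla and 8 heart ventricle libraries. Per the labels' protocols, stranded mRNA libraries were sequenced from 1 end. Salmon, Trimmomatic, MultiQC and bcl2fastq 2.19 are named in the submitters' processing notes. Build, annotation, tool settings and use of strand: not given in the sources used here. In all, 3 deposited tables hold expected counts (estimated, not always whole) of 36856 genes, without scaling to a common total, and all 24 columns matched a library name in the labels. All 36856 symbols occur in a RefSeq table of GRCr8, used for names only.

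Counts were rounded. Each table was fitted alone with edgeR 4.0.16 in R 4.3.3: filterByExpr with a minimum count of 10, TMM scaling, and the quasi-likelihood F test with batch as a term (replicates 1 and 2 are batch 1, replicates 3 and 4 batch 2). P-values were adjusted by Benjamini and Hochberg's method over all tested genes, with 0.05 as threshold. For the kidney interaction, the 16 libraries were fitted at once, each batch of each table having its own intercept. Levels are normalised CPM; no gene lengths were used, so levels are not compared between genes. Differences within a batch and correlations use log2 CPM with a prior count of 2. The fits recovered known changes in simulated data. The simulation held no batch effect and no variation shared between genes, and its changes were larger than those of most members. It therefore does not show if changes of the members' size would be found. No pair of libraries of a group agreed within sampling noise (chi-square per gene of 20.3 or more).

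The members and gene lists were chosen with earlier results of these data known. The genes named by rule are all 10 members, list genes past the threshold (where none passed, up to 2 with the smallest p) and up to 2 most similar genes per member; Xist, Aqp2 and Rhag are named outside it, as markers chosen after their values were seen. Alternatives were DESeq2 1.42.0, other scalings and filters, fits without the batch term or with replicate numbers as blocks, and fits leaving out a library or a batch. In heart, same-numbered libraries deviated together (correlations of 0.13 to 0.32 over genes). However, low-salt replicates 2, 3 and 4 each correlated better with the other number of their batch. Batch means were not taken out here, so these correlations cannot tell pairs from batch. The heart values are from the fit without pairs, and those with the replicate number as a block are given beside them.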

Additional observations from a re-analysis of the deposited data

Results flagged for a closer look

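Of 60 groups of 4 values (10 members in 6 groups), 7 held a value far from the other 3 by Dixon's criterion, which chance meets in about 1 of 20 groups. Rhcg stood at 535 CPM in control replicate 1, against 256 to 286 CPM in the other controls. The other 6 values were in heart batch 1: Atp6v0d2 at 0.830 CPM, Atp6v1g3 at 1.98 CPM, Rhcg at 3.38 CPM, Rhbg at 1.98 CPM and Aqp6 at 4.72 CPM in high-salt replicate 2, and Atp6v0d2 at 0.553 CPM in low-salt replicate 2.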

How the results depend on the processing

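Under the alternatives 0 members were called in all 4 comparisons, except that DESeq2 called 1 member on low salt in kidney, Slc4a9 (log2 1.32). DESeq2 gave no adjusted p to Slc26a4 on low salt in kidney or for the difference of the kidney responses. In heart it gave none to Aqp6 and Atp6v1b1. Leaving out each library in turn gave 0 members in every fit. Counts over all genes moved: with aldosterone from 0 to 373 with DESeq2, and on low salt in kidney from 454 to 1695 with DESeq2, 30 higher and 22 lower with the replicate number as a block, and 2 without low-salt replicate 3. In the kidney tables same-numbered libraries did not all deviate together (correlations of 0.01 to 0.37 with aldosterone and -0.09 to 0.31 for salt), and not every library correlated best with its own number. With the replicate block 0 members were called in each of the 4 comparisons. Of the members' log2 fold changes in alternative fits, 3 turned sign with aldosterone and 150 did not. The counts were 4 and 164 on low salt in kidney, where 1 more was counted apart as stronger. They were 6 and 43 in heart and 26 and 223 for the difference of the kidney responses. None of those that turned was called, and the cause was not tested. Depth limits Slc26a4 in kidney (2 to 30 reads) and nearly all members in heart. With aldosterone the sign turned for Foxi1 -0.20, Rhbg -0.036, Aqp6 -0.10 in batch 1 alone. On low salt in kidney the sign turned for Slc4a1 -0.18, Foxi1 -0.11, Aqp6 -0.050 in batch 2 alone, and for some rats left out the range spanned 0: Slc4a1 -0.031 to 0.39. On low salt in heart the sign turned for Slc4a1 -0.35, Aqp6 -0.43 in batch 1 alone, and for some rats left out the range spanned 0: Atp6v1b1 -0.047 to 1.71, Aqp6 -0.061 to 1.38. For the difference of the kidney responses the sign turned for Atp6v0d2 0.42, Slc4a1 0.44, Slc26a4 -0.33 in batch 1 alone and for Atp6v1b1 -0.43, Atp6v1g3 -0.17, Foxi1 -0.61, Rhcg -0.37, Rhbg -0.45, Aqp6 -0.49 in batch 2 alone, and for some rats left out the range spanned 0: Atp6v1b1 -0.096 to 0.28, Atp6v1g3 -0.079 to 0.35, Rhbg -0.080 to 0.33, Aqp6 -0.040 to 0.43, Atp6v0d2 -0.27 to 0.11, Slc4a1 -0.41 to 0.12.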
